A study of Mus musculus with 4 samples.

Results

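The genes described here encode ligands and receptors of the tumour necrosis factor (TNF) superfamily. They were taken by name from a table of 26026 genes, as the symbols that begin with Tnfsf or Tnfrsf and a number, together with Cd40, Cd27, Ltbr, Fas, Lta and Ltb. The rule found 38 genes, of which 13 encode ligands, 24 encode receptors and 1, Tnfsf13os, is a transcript antisense to a ligand gene and encodes no member of the family. Of these, 24 averaged 1 RPKM or more across the libraries and are described in full. They comprised 15 receptors, 8 ligands and Tnfsf13os. RPKM is reads scaled to the length of the transcript and to the library total, so levels of different genes can be set side by side.

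The measurements were messenger RNA profiles of mouse bone marrow cells in culture with 100 ng/mL of Flt3 ligand, a growth factor for dendritic cells and their precursors. Cells were labelled either wild type or Nfkb1-/-, both given the strain C57/B16, and were harvested at day 3 and at day 5, with fresh medium given at day 3. Each of the 4 groups (wild type at day 3, knockout at day 3, wild type at day 5, knockout at day 5) was 1 library, and the labels do not say how many animals gave the marrow. No difference between groups therefore has a replicate check, and no test between groups was made. The series asks how the NF-kB subunits RelA and p50, the product of Nfkb1, interact during this differentiation.

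TNF superfamily ligands are mostly membrane proteins that act as trimers on neighbouring cells or after being cut from the surface. Their receptors have cysteine-rich outer domains. Many recruit TRAF adaptors, which lead to NF-kB, and some carry a death domain that can lead to caspase activation. In dendritic cells and their precursors the family is known for CD40 signalling from T cells, for TNF itself, for the B cell survival factor BAFF, and for the lymphotoxins. Several family genes are also known targets of NF-kB.

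The recovered library totals ran from 15255070 to 16215214 reads, and between 70.2% and 75.0% of them fell in listed genes. Nfkb1 read 74.8 RPKM in wild type and 56.0 in the knockout at day 3, and 114 and 64.7 RPKM at day 5. It was thus lower but present in both libraries labelled knockout, and which exons the allele lacks was not examined. Markers of conventional dendritic cells summed to between 1158 and 3270 RPKM over 11 genes, and markers of neutrophils to between 2783 and 32321 RPKM over 10 genes. The cultures were therefore mixtures, with neutrophil transcripts abundant at day 3. In such bulk samples, fewer cells of a type and less RNA per cell cannot be told apart.

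**Figure D1:**
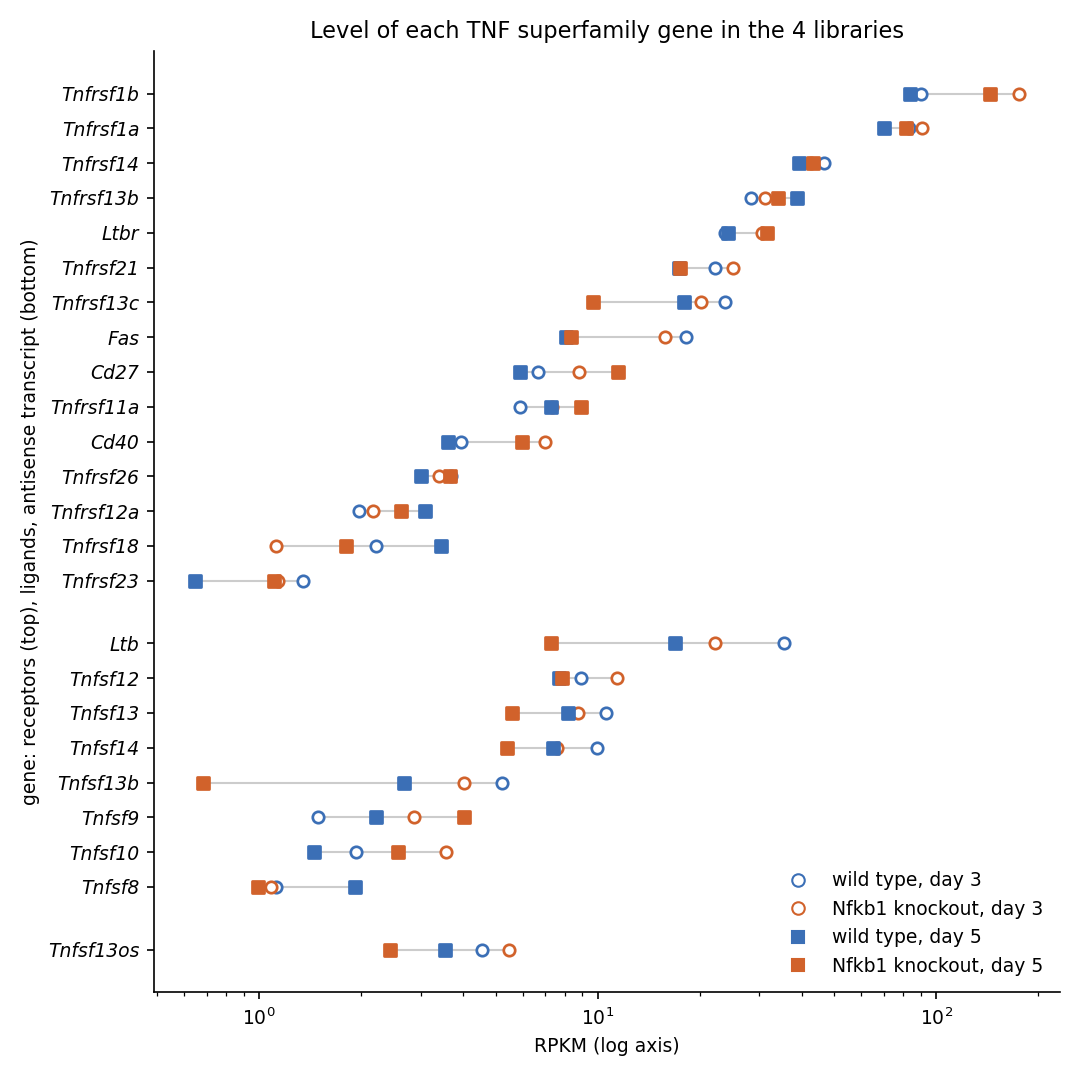
Level of the 24 TNF superfamily genes that averaged 1 RPKM or more, on a log axis of RPKM. Each point is 1 library (open circles, day 3; filled squares, day 5; blue, wild type; orange, Nfkb1 knockout) and the grey line spans the 4 libraries. Tnfrsf1b and Tnfrsf1a stand above all others, and Ltb and Tnfsf13b have the widest spans among the ligands.

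The receptors for TNF were the most abundant genes of the family. Tnfrsf1b, which encodes TNF receptor 2, had a mean of 123 RPKM and Tnfrsf1a, which encodes the death domain receptor TNFR1, had a mean of 81.3 RPKM. Next came Tnfrsf14 (HVEM, the receptor for LIGHT) at 42.9, Tnfrsf13b (TACI, a receptor for BAFF and APRIL) at 33.1, Ltbr (the lymphotoxin beta receptor) at 27.5 and Tnfrsf21 (death receptor 6) at 20.6 RPKM. Among the ligands taken by the rule, which leaves out Tnf (mean 25.2 RPKM) because of its symbol, Ltb, the membrane-anchoring chain of lymphotoxin, had the highest mean at 20.5 RPKM. Tnfsf12, which encodes TWEAK, followed at 8.95, Tnfsf13, which encodes APRIL, at 8.26 and Tnfsf14, which encodes LIGHT, at 7.56 RPKM. The remaining described ligands had means between 1.28 and 3.15 RPKM.

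The 14 genes below a mean of 1 RPKM, 5 ligands and 9 receptors, had means from 0.0846 to 0.881 RPKM and at most 104 reads in any library. Of these genes, 3 (Tnfrsf11b, Tnfrsf17 and Tnfsf4) stood at 1 read, the lowest entry in the table, in at least 1 library, and 3 (Tnfrsf4, Tnfrsf8 and Tnfsf15) exceeded 1 RPKM in at least 1 library. A gene can pass or miss such a limit through the library in which it is high, so counts over the described genes are descriptions of that selection.

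Ligands and receptors were set side by side as pairs. Of 21 textbook pairs of a ligand and a receptor, 9 had both genes at a mean of at least 1 RPKM, 5 had only the receptor at that level, 5 only the ligand and 2 neither. A mean under 1 RPKM is not absence: Tnfrsf8, the receptor for Tnfsf8, held 88 reads in the knockout at day 3, and Tnfsf15 held 104 reads in the knockout at day 5. The pairs with only the receptor at that level were as follows. Cd40 had a mean of 5.13 RPKM and Cd40lg of 0.103, Cd27 of 8.22 and Cd70 of 0.172, Fas of 12.6 and Fasl of 0.0679, Tnfrsf11a of 7.35 and Tnfsf11 of 0.449, and Tnfrsf18 of 2.15 and Tnfsf18 of 0.0846 RPKM. Cd40lg, Cd70 and Fasl held 5 reads or fewer in every library.

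Between genotypes, differences were computed as log2 of RPKM + 1, a scale that understates the change of low genes, and a member was called higher or lower where its difference reached 1 (the size rule). At day 3 no member passed, upward or downward, where 0.976% of all 11786 genes that averaged 1 RPKM or more were higher in the knockout and 0.882% were lower. At day 5 no member was higher (1.16% of all genes) and 2 of 24 were lower (3.22% of all genes), namely Ltb and Tnfsf13b. With 5 RPKM added in place of 1, neither reached the rule. The members' median difference was 0.11 at day 3, beside 0.13 for all genes, and 0.03 at day 5, beside 0.01. The median over the receptors was 0.12 at day 3 and 0.21 at day 5, with 9 and 11 of 15 above 0. That over the ligands was -0.14 and -0.44, with 3 of 8 above 0 at each day. Of all 11786 genes, 66.6% lay above 0 at day 3 and 51.2% at day 5. No member's genotype difference moved by 1 or more between the days (1.00% of all genes moved upward and 2.63% downward).

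Differences below the size rule were read against counting error. A ratio of knockout to wild type is given with a 95% Clopper-Pearson interval of the recovered reads, which leaves out any variation between cultures. By that measure 8 members had intervals above 1 at both days (Tnfrsf1b, Tnfrsf1a, Ltbr, Cd27, Tnfrsf11a, Cd40, Tnfsf9 and Tnfsf10), 6 had intervals below 1 at both days (Ltb, Tnfrsf13c, Tnfsf13, Tnfsf14, Tnfsf13b and Tnfrsf18), and 10 did neither. Of all 11786 genes, 20.9% had intervals above 1 at both days and 9.38% below. When the libraries were rescaled by their median ratio, which brings the median of all genes at day 3 from 0.13 to -0.02, the first count became 5, without Tnfrsf1a, Cd27 and Tnfrsf11a, and the second held the same 6 genes, beside 14.0% and 15.5% of all genes.

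**Figure D2:**
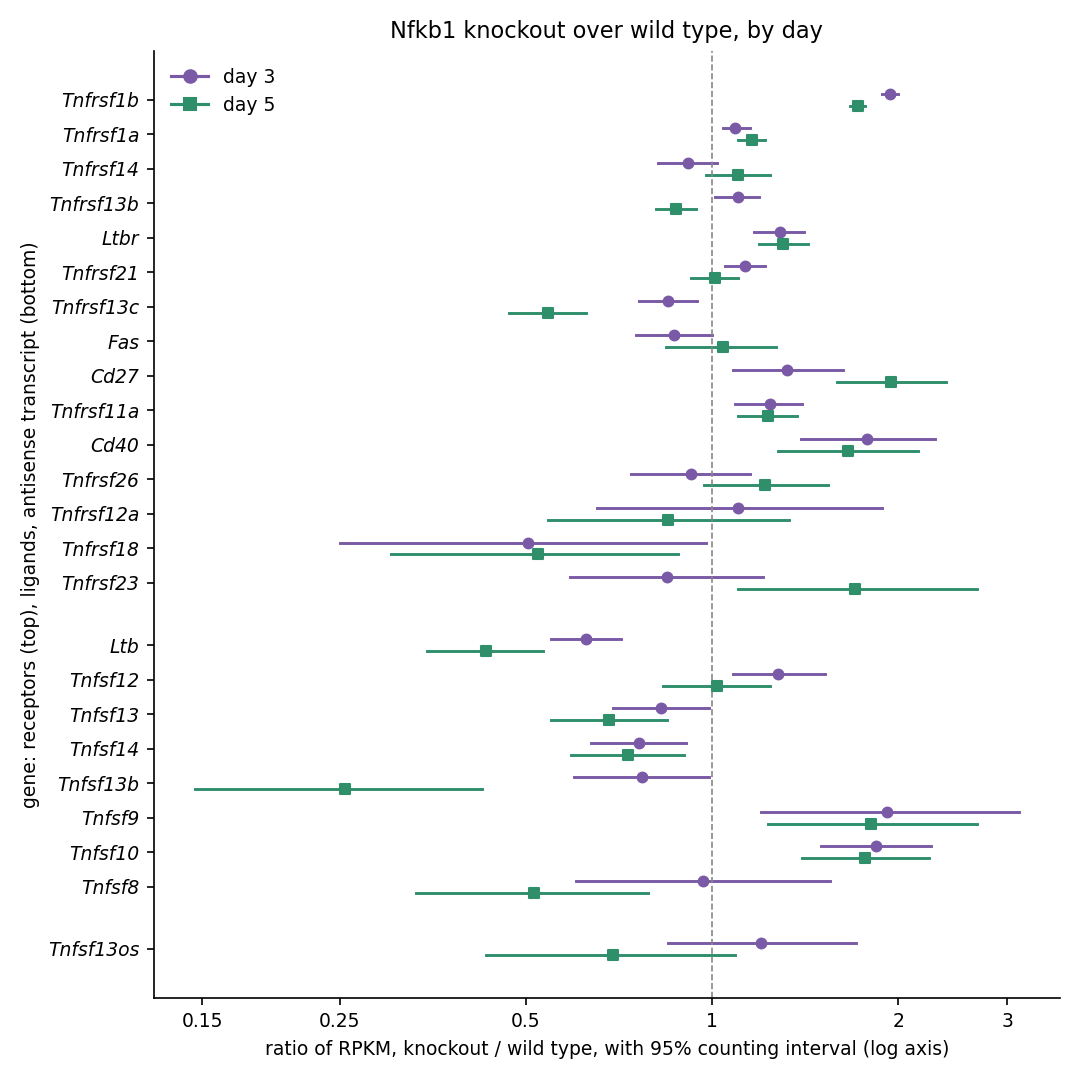
Ratio of RPKM in the Nfkb1 knockout to wild type for each gene, on a log axis, with 95% counting intervals (purple circles, day 3; green squares, day 5; dashed line, equal levels). Tnfrsf1b, Cd40, Tnfsf9 and Tnfsf10 lie to the right at both days, and Ltb, Tnfrsf13c and Tnfsf13b lie farther to the left at day 5 than at day 3.

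The receptors for TNF differed from each other. Tnfrsf1b stood at 90.2 (wild type) and 175 (knockout) RPKM at day 3, and at 83.7 and 144 RPKM at day 5, so both knockout libraries lay above both wild-type libraries. At day 3 its ratio was 1.94 (1.88 to 2.00), and at day 5 it was 1.72 (1.67 to 1.77), with log2 differences of 0.95 and 0.77, under the size rule. Tnfrsf1a stood at 83.1 (wild type) and 90.6 (knockout) RPKM at day 3, and at 70.1 and 81.3 RPKM at day 5, with ratios of 1.09 (1.04 to 1.15) and 1.16 (1.10 to 1.22), and its day 3 direction turned under the median ratio rescaling. Within a library, which no rescaling affects, Tnfrsf1b read 1.09 and 1.19 times Tnfrsf1a in wild type at day 3 and day 5, and 1.93 and 1.77 times in the knockout. Tnf, the ligand of both receptors, has a name outside the rule. It stood at 17.8, 38.3, 9.76 and 34.9 RPKM in wild type at day 3, knockout at day 3, wild type at day 5 and knockout at day 5, which gave knockout ratios of 2.16 (1.93 to 2.42) at day 3 and 3.57 (3.11 to 4.12) at day 5.

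The lymphotoxin genes lay on the other side. Ltb stood at 35.4 (wild type) and 22.2 (knockout) RPKM at day 3, and at 16.9 and 7.30 RPKM at day 5, so that the knockout was lower at each day. The ratio was 0.626 (0.550 to 0.712) for day 3, and for day 5 it was 0.431 (0.346 to 0.533), and its log2 differences were -0.65 and -1.11, of which the latter passed the size rule. Lta, the soluble lymphotoxin chain, was a low gene with 21, 10, 5 and 3 reads in wild type at day 3, knockout at day 3, wild type at day 5 and knockout at day 5. At day 3 its ratio was 0.448 (0.188 to 0.994), and at day 5 it was 0.628 (0.0975 to 3.23), so the day 5 difference was not detectable at this depth. The receptor Ltbr stood at 23.8 and 30.6 RPKM at day 3 and at 24.2 and 31.6 RPKM at day 5, in wild type and knockout respectively, with ratios of 1.29 (1.17 to 1.41) and 1.3 (1.19 to 1.43). The level of Ltb per level of Ltbr within a library was thus 1.49 in wild type and 0.725 in the knockout at day 3, and 0.700 and 0.231 at day 5. Tnf lies between Ltb and Lta on chromosome 17 with no other protein-coding gene in between, by the gene order of the RefSeq annotation of GRCm38.p6. The neighbours thus stood on opposite sides between genotypes, Tnf higher and Ltb lower in the knockout at both days.

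**Figure D3:**
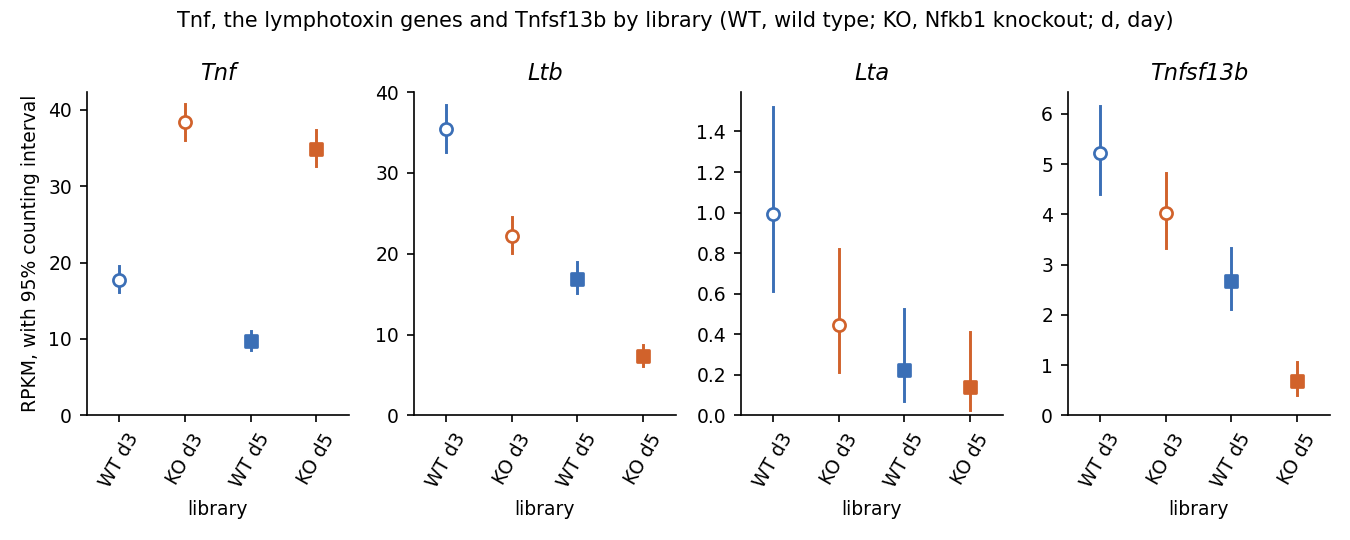
RPKM of Tnf, Ltb, Lta and Tnfsf13b in each library with exact 95% Poisson counting intervals (blue, wild type; orange, Nfkb1 knockout; open circles, day 3; filled squares, day 5; each panel has its own axis from 0). Tnf is high in the knockout libraries at 38.3 and 34.9 RPKM, while the other 3 genes are highest in wild type at day 3 and lowest in the knockout at day 5.

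Lymphocytes are known to express Ltb, and their markers were measured beside it. The 10 B cell markers summed to 387 (wild type) and 320 (knockout) RPKM at day 3, and to 214 and 117 RPKM at day 5, the same order of libraries as Ltb. The 11 T and NK cell markers summed to 37.1, 14.6, 21.9 and 9.35 RPKM in wild type at day 3, knockout at day 3, wild type at day 5 and knockout at day 5. Of the B cell markers 8 had a mean of at least 1 RPKM. In the knockout the size rule called 3 of these lower at day 3 (Fcer2a, Cr2 and Cd22), beside 0.882% of all genes. None of the B cell markers and 1 T cell marker, Cd3g, stood at 1 read in a library. The neutrophil markers given below shared the order of Ltb too. The part of these cell types in the Ltb values was not tested.

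The sequence just upstream of Ltb is printed because it is a gene past the size rule between genotypes and its promoter holds a motif of the NF-kB type. Promoter windows of 250 bases before the start were searched on both strands for GGNNTTTCC and GGGNNTTCC, letters shared by many NF-kB sites, which can overlap each other. Of 32851 promoter windows in the RefSeq table for GRCm38.p6, 8.36% held either motif (4.93% the former and 4.98% the latter). Promoters were at hand for 29 of the 38 members, in 33 windows, and 4 of these windows (12.1%) held a motif, those of Tnfrsf9, Tnfrsf25, Tnfrsf13b and Ltb. In the Ltb window, chr17:35194257-35194506 on the plus strand of GRCm38.p6, GGNNTTTCC was found on the reverse strand at 79 to 87 bases before the start, shown in capitals. The deposited values were made on another build, mm9, so the window serves for its sequence only.

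Ltb: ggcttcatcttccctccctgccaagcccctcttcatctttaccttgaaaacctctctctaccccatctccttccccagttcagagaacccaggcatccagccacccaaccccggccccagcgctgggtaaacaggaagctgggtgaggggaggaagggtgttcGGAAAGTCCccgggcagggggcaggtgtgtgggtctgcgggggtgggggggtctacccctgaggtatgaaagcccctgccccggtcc

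Tnfsf13b, which encodes BAFF, was the other member past the size rule between genotypes. It stood at 5.22 (wild type) and 4.03 (knockout) RPKM at day 3, on 144 and 118 reads, and at 2.68 and 0.683 RPKM at day 5, on 78 and 19 reads. The ratio was 0.771 (0.599 to 0.990) for day 3, and for day 5 it was 0.255 (0.146 to 0.425), the latter a log2 difference of -1.13. The knockout at day 5 was the lowest of the 4 libraries, below the others by more than the counting error. The 10 neutrophil markers, a cell type known to make BAFF, followed the same order of libraries, at 32321, 22757, 13029 and 2783 RPKM in wild type at day 3, knockout at day 3, wild type at day 5 and knockout at day 5. All 10 had a mean of at least 1 RPKM, and none stood at 1 read in a library. At day 5 the size rule called 9 lower in the knockout, led by Retnlg, Ly6g, Ltf and S100a8, beside 3.22% of all genes. The B cell markers and the genes Ltb, Lta, Tnfsf13, Tnfsf14 and Tnfrsf13c shared this order of libraries, so it is not particular to neutrophils and Tnfsf13b. Other marker sums given below ordered the libraries otherwise. In wild type and knockout, conventional dendritic cell markers summed to 2084 and 1158 RPKM at day 3 and to 3270 and 1308 at day 5. Monocyte and macrophage markers summed to 1264 and 1885 RPKM at day 3 and to 1127 and 1681 at day 5. The part of these cell types in the Tnfsf13b values was not tested.

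The RefSeq table holds 2 overlapping windows for Tnfsf13b on chromosome 8, and neither held a searched motif in these bases. The upstream one, chr8:10006217-10006466 on the plus strand of GRCm38.p6, is printed for comparison with that of Ltb. Its GC content was 48.8%, against 63.2% for Ltb.

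Tnfsf13b: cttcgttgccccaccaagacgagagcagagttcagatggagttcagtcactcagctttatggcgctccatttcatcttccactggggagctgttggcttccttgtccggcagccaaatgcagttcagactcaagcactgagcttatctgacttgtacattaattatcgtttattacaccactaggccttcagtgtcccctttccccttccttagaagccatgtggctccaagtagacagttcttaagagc

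The related ligand and the receptors of this branch were measured beside it. Tnfsf13 (APRIL) stood at 10.6 (wild type) and 8.72 (knockout) RPKM at day 3, and at 8.18 and 5.58 RPKM at day 5, with ratios of 0.826 (0.691 to 0.987) and 0.682 (0.549 to 0.845). Its gene is overlapped by Tnfsf13os, which also overlaps Tnfsf12, and the use of strand in counting is not given in the sources used here, so reads of these genes cannot be told apart with certainty. Tnfsf13os itself stood at 4.55, 5.48, 3.53 and 2.44 RPKM in wild type at day 3, knockout at day 3, wild type at day 5 and knockout at day 5, and its interval included 1 at both days. Tnfrsf13c, the BAFF receptor of B cells, stood at 23.8 (wild type) and 20.2 (knockout) RPKM at day 3, and at 17.9 and 9.71 RPKM at day 5. At day 3 its ratio was 0.848 (0.761 to 0.945), and at day 5 it was 0.542 (0.469 to 0.625). Its order of libraries was that of the B cell and neutrophil markers given above, whose part was not tested. Tnfrsf13b (TACI) had a ratio of 1.10 (1.01 to 1.19) at day 3, where the direction turned under the median ratio rescaling, and 0.875 (0.811 to 0.943) at day 5, from 28.3 and 31.1 RPKM at day 3 and 38.9 and 34.01 RPKM at day 5. Tnfrsf17 (BCMA), the receptor of plasma cells, held at most 3 reads in any library.

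Among the co-stimulatory genes, Cd40, the receptor through which T cells license dendritic cells, stood at 3.93 (wild type) and 7.0 (knockout) RPKM at day 3, and at 3.61 and 5.98 RPKM at day 5. The ratio was 1.78 (1.39 to 2.29) for day 3, and for day 5 it was 1.66 (1.28 to 2.15), and both knockout libraries lay above both wild-type libraries. Tnfsf9, which encodes the T cell co-stimulator 4-1BBL, stood at 1.49 and 2.86 RPKM at day 3 and at 2.22 and 4.01 RPKM at day 5, with ratios of 1.92 (1.20 to 3.13) and 1.81 (1.23 to 2.68) on 28 to 76 reads. Cd27, a receptor of lymphocytes and early progenitors, stood at 6.66 (wild type) and 8.80 (knockout) RPKM at day 3, and at 5.91 and 11.5 RPKM at day 5. At day 3 its ratio was 1.32 (1.08 to 1.63), and at day 5 it was 1.95 (1.59 to 2.39), opposite in direction to the summed B cell and T and NK cell markers. No list of progenitor markers was summed, and the part of these cell types in the Cd27 values was not tested.

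Other genes of this kind were lower in the knockout. Tnfrsf18 (GITR) stood at 2.22 (wild type) and 1.12 (knockout) RPKM at day 3, and at 3.45 and 1.81 RPKM at day 5, with ratios of 0.504 (0.25 to 0.976) and 0.523 (0.303 to 0.881) on 15 to 46 reads. Its neighbour Tnfrsf4 (OX40), with no protein-coding gene in between, was below the limit of 1 RPKM and had ratios of 0.443 (0.165 to 1.08) and 0.586 (0.282 to 1.17), so its intervals included 1. Tnfsf14 (LIGHT) stood at 9.93 and 7.56 RPKM at day 3 and at 7.37 and 5.39 RPKM at day 5, with ratios of 0.761 (0.637 to 0.909) and 0.731 (0.591 to 0.901). Its receptor Tnfrsf14 stood at 46.5, 42.5, 39.3 and 43.3 RPKM in wild type at day 3, knockout at day 3, wild type at day 5 and knockout at day 5, and its intervals included 1 at both days. Tnfsf8, the ligand of CD30, had a ratio of 0.966 (0.602 to 1.55) at day 3 and 0.516 (0.332 to 0.788) at day 5, from 1.12 and 1.08 RPKM at day 3 and 1.92 and 0.991 RPKM at day 5. Wild type at day 5 was the high library for this gene.

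Of the death receptors and their ligands, Tnfsf10, which encodes TRAIL, stood at 1.94 (wild type) and 3.56 (knockout) RPKM at day 3, and at 1.46 and 2.57 RPKM at day 5. The ratio was 1.84 (1.5 to 2.26) for day 3, and for day 5 it was 1.77 (1.4 to 2.24). The TRAIL death receptor Tnfrsf10b was below the limit, at 20, 18, 6 and 19 reads in wild type at day 3, knockout at day 3, wild type at day 5 and knockout at day 5. Tnfrsf23 and Tnfrsf26, which lie on either side of Tnfrsf22 on chromosome 7 and encode receptors lacking a death domain, had means of 1.06 and 3.44 RPKM. Their intervals included 1, apart from that of Tnfrsf23 at day 5, which was 1.10 to 2.68 around a ratio of 1.70. With Tnfrsf22, whose level was lower, they form a cluster of related sequence, so the division of reads between them is uncertain. Fas, the receptor that triggers apoptosis on Fas ligand binding, stood at 18.2 and 15.8 RPKM at day 3 and at 8.06 and 8.35 RPKM at day 5, with intervals that reached 1 at both days. Tnfrsf21 stood at 22.2 (wild type) and 25.1 (knockout) RPKM at day 3, and at 17.4 and 17.6 RPKM at day 5, with ratios of 1.13 (1.05 to 1.22) and 1.01 (0.924 to 1.10).

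Tnfrsf11a, which encodes RANK, the receptor for the osteoclast factor RANKL, stood at 5.90 and 7.31 RPKM at day 3 and at 7.26 and 8.91 RPKM at day 5 in wild type and knockout, with ratios of 1.24 (1.09 to 1.4) and 1.23 (1.10 to 1.37). Tnfsf12 (TWEAK) stood at 8.90 (wild type) and 11.4 (knockout) RPKM at day 3, and at 7.69 and 7.82 RPKM at day 5. At day 3 its ratio was 1.28 (1.08 to 1.52), and at day 5 it was 1.02 (0.834 to 1.24). Its receptor Tnfrsf12a (Fn14) held 29 to 48 reads, and its interval included 1 at both days.

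Among genes under the limit of 1 RPKM, 2 were named after their values were seen because their intervals lay above 1 at both days. So did those of 0.323% of all 14240 genes under that limit. Of all 26026 genes measured, 7985 stood at 1 read in every library, where no interval can lie above 1. Genes that low are counted in the share of 0.323%. It therefore cannot show how often genes with as many reads as these 2 have such intervals. Tnfsf15, which encodes TL1A, stood at 0.306 and 0.822 RPKM at day 3 and at 0.408 and 1.17 RPKM at day 5 in wild type and knockout, with ratios of 2.68 (1.71 to 4.33) and 2.86 (1.96 to 4.27). Tnfrsf8 (CD30) stood at 0.820 and 1.58 RPKM at day 3 and at 0.379 and 0.699 RPKM at day 5, with ratios of 1.93 (1.32 to 2.84) and 1.84 (1.05 to 3.32). Tnfrsf8 adjoins Tnfrsf1b on chromosome 4 with no protein-coding gene in between, and the ratio of Tnfrsf1b at these days was 1.94 and 1.72. Tnfsf15 adjoins Tnfsf8 on chromosome 4 in the same way, and the ratio of Tnfsf8 was 0.966 and 0.516. The part of position in these ratios was not tested.

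The second question was how the family differed between day 5 and day 3 in each genotype. In wild type no member was higher by the size rule (1.80% of all genes) and 2 of 24 were lower (2.05% of all genes), Ltb and Fas. In the knockout no member was higher (0.594% of all genes) and 2 of 24 were lower (3.01% of all genes), Ltb and Tnfsf13b. With 5 RPKM added in place of 1, none of these reached the rule except Ltb in the knockout. The median difference of the members was -0.23 in wild type and -0.18 in the knockout, while the medians of all genes were 0.16 and 0.04. Of the 24 members 17 lay below 0 in wild type and 15 in the knockout. By comparison, 69.3% of all genes lay above 0 in wild type and 56.1% in the knockout. Intervals lay below 1 in both genotypes for 10 members and above 1 in both for 2, Tnfrsf13b and Tnfrsf11a. Of all genes, 10.5% lay below and 19.5% above. After rescaling by the median ratio, 11 members lay below and 0 above, beside 14.6% and 11.7% of all genes.

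**Figure D4:**
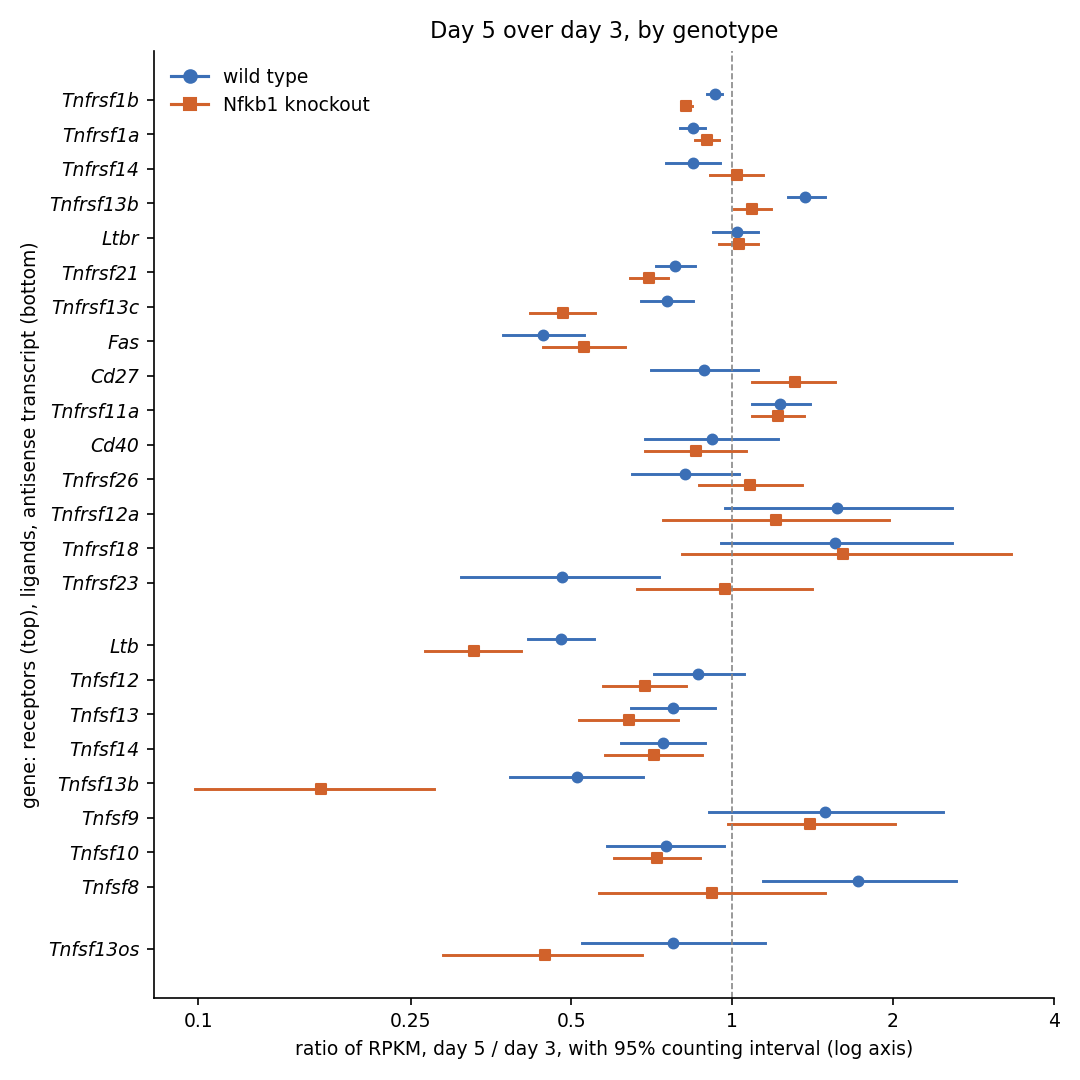
Ratio of RPKM at day 5 to day 3 for each gene, on a log axis, with 95% counting intervals (blue circles, wild type; orange squares, Nfkb1 knockout; dashed line, equal levels). Ltb, Fas, Tnfrsf13c and Tnfsf13b lie to the left in both genotypes, and Tnfsf13b in the knockout lies farthest left.

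Ltb fell by the size rule from day 3 to day 5 in both genotypes, with ratios of day 5 to day 3 of 0.478 (0.415 to 0.550) in wild type and 0.329 (0.266 to 0.403) in the knockout, and log2 differences of -1.02 and -1.48. Fas had ratios of 0.443 (0.372 to 0.527) and 0.529 (0.442 to 0.631), with log2 differences of -1.08 (wild type) and -0.84 (knockout), and both day 5 libraries lay below both day 3 libraries. Tnfsf13b had ratios of 0.513 (0.384 to 0.680) and 0.17 (0.0986 to 0.277), with log2 differences of -0.76 and -1.58. Tnfrsf13c had ratios of 0.754 (0.674 to 0.843) and 0.482 (0.418 to 0.554), and its log2 difference in the knockout was -0.98, just under the rule. The genotype comparisons and the comparisons of days share libraries, so these values are not independent of those given for the genotypes.

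The more abundant receptors differed less between the days. Tnfrsf1b had ratios of day 5 to day 3 of 0.927 (0.896 to 0.959) in wild type and 0.821 (0.801 to 0.842) in the knockout, and Tnfrsf1a of 0.844 (0.799 to 0.891) and 0.897 (0.852 to 0.944). Tnfrsf21 was lower at day 5, with ratios of 0.783 (0.720 to 0.852) and 0.699 (0.644 to 0.758). Ltbr had ratios of 1.02 (0.921 to 1.12) and 1.03 (0.945 to 1.12), and the wild-type direction turned under either rescaling. Tnfrsf13b was higher at day 5 in wild type, with a ratio of 1.37 (1.27 to 1.49), against 1.09 (1.01 to 1.18) in the knockout. Tnfrsf11a had ratios of 1.23 (1.09 to 1.4) and 1.22 (1.09 to 1.36). Cd27 had a ratio of 0.887 (0.705 to 1.12) in wild type and 1.31 (1.09 to 1.56) in the knockout. The ligands LIGHT and TRAIL were lower at day 5 in both genotypes, Tnfsf14 with ratios of 0.743 (0.620 to 0.888) and 0.713 (0.577 to 0.878) and Tnfsf10 with ratios of 0.752 (0.584 to 0.966) and 0.724 (0.601 to 0.872).

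Genes that act downstream of these receptors were taken from fixed lists. Beside them, the median difference of all genes between genotypes was 0.13 at day 3 and 0.01 at day 5. Of 14 TRAF and IAP adaptors, all at a mean of at least 1 RPKM, none passed the size rule between genotypes at either day, and the medians were -0.10 and -0.05. None of the 17 genes for the linear ubiquitin ligase, deubiquitinases and the TAK1 and IKK kinases passed, with medians of 0.08 and -0.03. Tnfaip3, the deubiquitinase A20 that limits TNF signalling, was picked after its values were seen. It stood at 12.7 and 24.2 RPKM at day 3 and at 11.8 and 21.1 RPKM at day 5, or differences of 0.88 and 0.78, under the rule. None of the 8 genes of the noncanonical NF-kB branch, which lymphotoxin, BAFF and CD40 receptors feed, passed at either day, and the medians were 0.04 and -0.14. There Map3k14, the kinase NIK, differed by 0.02 and -0.17, Nfkb2 by -0.29 and -0.08 and Relb by 0.07 and -0.03.

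Of 14 death domain adaptors and caspases, none passed the rule at day 3 and 1 was higher at day 5, with medians of 0.17 and 0.07. That gene was Ripk3, a kinase of necroptosis, at 8.14 (wild type) and 19.9 (knockout) RPKM at day 5, which differ by 1.19, after 11.1 and 14.0 RPKM at day 3. Of the 17 TNF-induced genes listed, 15 averaged 1 RPKM or more, and of these 3 were higher in the knockout at day 3 and 3 at day 5, and none was lower, with medians of 0.30 and 0.41. At day 3 these were Sod2, the mitochondrial superoxide dismutase, by 1.32, the survival gene Bcl2a1d by 1.20 and the cytokine Il6 by 1.01. At day 5 they were Sod2 by 1.42 and the chemokines Cxcl2 by 1.4 and Ccl2 by 1.23. Bcl2a1d has near-identical copies, so its reads are uncertain, and at day 3 the copies Bcl2a1a and Bcl2a1b differed by -0.75 and 0.25. Il6 held 16 and 53 reads at day 3. Of 5 ligand processing enzymes none passed, with medians of 0.11 and 0.03. Adam17, also picked after its values were seen and the protease that releases TNF and its receptors from the surface, stood at 33.3 and 45.7 RPKM at day 3 and at 34.1 and 53.2 RPKM at day 5, or differences of 0.44 and 0.63. Between the days, Casp6, an executioner caspase, was higher at day 5 in wild type by 1.12, and in the TNF-induced list Bcl2a1a, another of the near-identical copies, and Ccl2 were lower there by the rule (differences of -1.25 and -1.0). The genotype difference of these latter genes moved upward from day 3 to day 5 by 1.51 and 1.06. No other gene of these lists passed between the days. Of all genes, 1.80% were higher and 2.05% lower at day 5 in wild type, and the genotype difference moved upward in 1.00%. The lists were chosen with results of these data known, so their direction is a description.

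**Figure D5:**
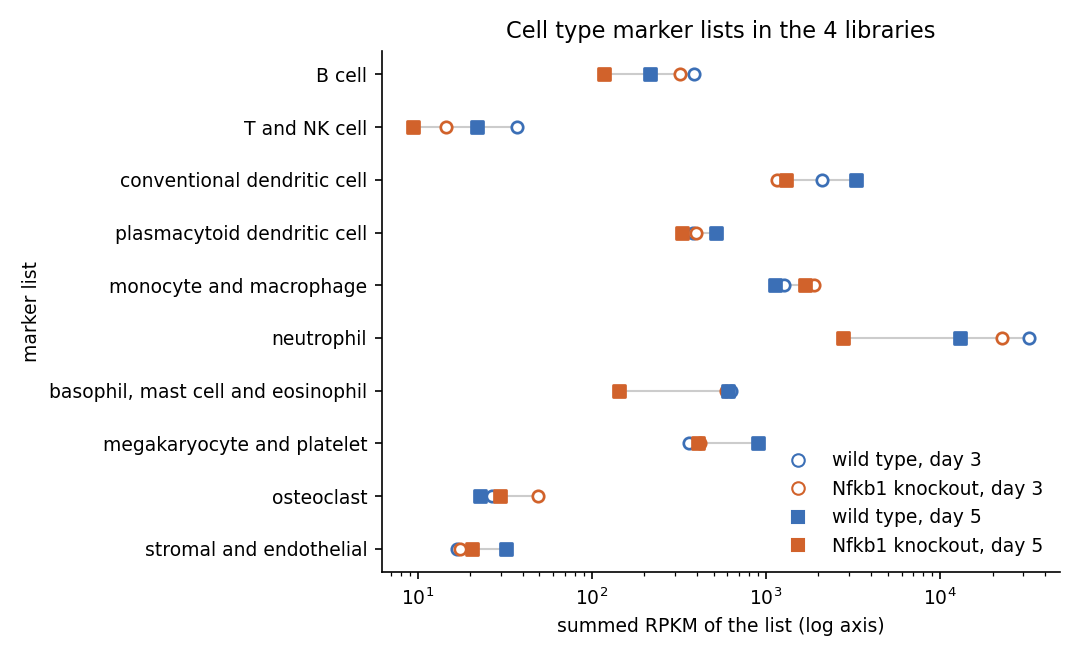
Summed RPKM of 10 lists of cell type markers in each library, on a log axis (open circles, day 3; filled squares, day 5; blue, wild type; orange, Nfkb1 knockout; the grey line spans the libraries). The neutrophil sum ranges from 2783 RPKM in the knockout at day 5 to 32321 RPKM in wild type at day 3, and the B cell and T and NK cell sums are also lowest in the knockout at day 5.

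The marker lists moved with genotype and day beside the family genes. Between genotypes, 66.6% of all genes differed upward in the knockout at day 3 and 51.2% at day 5. Conventional dendritic cell markers summed to 2084 (wild type) and 1158 (knockout) RPKM at day 3, and to 3270 and 1308 RPKM at day 5. At day 5 the size rule called 9 of 11 lower in the knockout, led by Cd209a, Xcr1, Clec9a and H2-Aa, beside 3.22% of all genes. Monocyte and macrophage markers summed to 1264 and 1885 RPKM at day 3 and to 1127 and 1681 RPKM at day 5, higher in the knockout at each day as Tnfrsf1b, Cd40, Tnfsf10 and Tnf were. At each day 6 of the 10 differed upward, and Ly6c2 made up much of the sum, at 405, 829, 228 and 469 RPKM in wild type at day 3, knockout at day 3, wild type at day 5 and knockout at day 5. At day 5 the size rule called 3 of 10 higher (Marco, Cd14 and Ly6c2) and 1 lower (Adgre1), beside 1.16% and 3.22% of all genes. Plasmacytoid dendritic cell markers summed to 382 and 399 RPKM at day 3 and to 516 and 330 RPKM at day 5, while 2 of the 8 differed upward in the knockout at day 3 (median -0.30) and none at day 5 (median -0.77). Basophil, mast cell and eosinophil markers summed to 629, 590, 601 and 144 RPKM in wild type at day 3, knockout at day 3, wild type at day 5 and knockout at day 5. The lowest of these was the library in which Ltb, Tnfrsf13c and Tnfsf13b were also lowest. No marker of the dendritic cell, monocyte and basophil lists stood at 1 read in a library. Megakaryocyte and platelet markers summed to 360, 415, 895 and 410 RPKM over the libraries in the same order, osteoclast markers to 26.7, 48.9, 22.9 and 29.9, and stromal and endothelial markers to 16.9, 17.4, 32.2 and 20.6 RPKM. Only 2 of the 6 osteoclast markers and 4 of the 9 stromal and endothelial markers averaged 1 RPKM or more. Between genotypes, 1 of those 2 osteoclast markers differed upward at each day, while the other, Ctsk, differed by -0.24 and -0.81. Of those 4 stromal and endothelial markers, 1 differed upward at day 3 and none at day 5. The osteoclast markers Calcr, Dcstamp and Oscar and the stromal marker Lepr stood at 1 read in a library. The part of these cell types in the levels of the family genes was not tested.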

How the data were processed

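One polyadenylated RNA library per group was sequenced by the submitters from a Kapa mRNA HyperPrep kit, per the labels' protocols. HISAT2, SAMtools and mm9 are named, without versions, in the submitters' processing notes. The counting tool, the annotation release and whether strand was used: not given in the sources used here. Per the file headers, the authors deposited RPKM per gene, 1 column per library and none left over.

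Values are whole multiples of what 1 read is worth, from which library totals, lengths and whole reads were recovered (tolerance 0.003 reads, missed by 135 of 26026 genes). The smallest fitting length was kept unless a whole multiple came within 5% of a paired GENCODE transcript (591 genes). Reads of Cd40 and Tnfsf8 may therefore be too few by a whole factor. The table has no 0, so 1 read can mean none. Intervals and floors cover counting error only, and the reads carry no molecular identifiers, so they do not count independent molecules.

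Differences, computed here from the deposited RPKM, are log2(RPKM + 1), unscaled, over the 11786 genes that averaged 1 RPKM or more. The size rule is at least 1. Named are members past it, the 10 highest means, members whose counting intervals lie on the same side of 1 at both days, and list genes past the rule (at most 4 per comparison). Members and lists were chosen with earlier results of these data known. Recovery and the size rule were tested on simulated data in which every gene was given its true length. In the deposited data 22187 of 26026 genes had a paired transcript. The simulation therefore does not cover lengths that the values leave uncertain. Python 3.11.15, numpy 2.4.6, pandas 2.3.3, scipy 1.17.1 and matplotlib 3.10.9 were used. Alternatives were other pseudocounts, filters and scalings, and 2 added after seeing the data (at least 20 reads on average, and leaving out Tnfsf13os).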

Additional observations from a re-analysis of the deposited data

How the results depend on the processing

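No paired analysis was possible because the labels give no replicate numbers and each group is 1 library, and no replicate could be left out. Of 120 recomputed counts and medians, 105 kept their direction and stayed within the limits set for a change. That number includes 15 from the filter of at least 20 reads, which kept the same 24 members and so could not differ. The counts of members higher were 0 under every setting. With a pseudocount of 5 RPKM, the members lower in the knockout at day 5 went from 2 to 0, those lower at day 5 in wild type from 2 to 0, those lower at day 5 in the knockout to 1, and the wild-type median between days to -0.12. With a pseudocount of 0.1 RPKM, 4 members were lower at day 5 in the knockout (Tnfrsf13c and Tnfsf13os joining), and 1, Tnfsf13b, had a genotype difference that dropped between the days by over 1. At a mean of at least 5 RPKM, 1 member, Ltb, was lower in the knockout at day 5 and 1 between the days in the knockout, where the median was -0.28; that filter leaves out Tnfsf13b. With no filter the day 3 genotype median was -0.01 and the knockout median between days 0. The median ratio rescaling gave -0.04 for the day 3 genotype median, -0.36 for the wild-type median between days and 0.01 for the median shift, which was 0 with equal sums of RPKM. With the median ratio rescaling, 3 members were lower at day 5 in the knockout, Tnfrsf13c joining Ltb and Tnfsf13b, a change within the limits set. The cause was not tested for these changes other than the filters. Depth limits the genes under 1 RPKM most, and having 1 library in a group limits all the comparisons made.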
